A study of Drosophila melanogaster with 3 samples.

Results

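The small RNAs described here are those that matched positions 1201 to 1500 of the retroelement Penelope in ovaries of Drosophila melanogaster. Members were chosen by position: every distinct sequence whose lowest listed match started, counting from 1, at 1201 to 1500, on either strand. Of the 2670 distinct sequences listed over 3 strains, 390 met this rule, A1a contributing 140 of 970, A2d 219 of 1800 and A2h 153 of 474. None matched at a second place. The window was picked because antisense reads of A2h were known to be dense there, so its read density is given as a description. The strains A1a, A2d and A2h are 3 fly strains in which small RNAs of Penelope had been seen on Northern blots, each with 1 ovary library from adult flies 3 to 5 days old kept at 25 °C. RNA of 23 to 29 nt had been cut from a gel. How the strains acquired the element is not stated in the sources used here, nor how they differ in genotype. Each strain had 1 library, so no test compared the strains. Bracketed ranges are exact (Clopper-Pearson) 95% binomial intervals on reads. They cover counting error only, and reads amplified by PCR are not independent molecules.

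Penelope is known from Drosophila virilis and encodes a reverse transcriptase with a GIY-YIG endonuclease. Piwi-interacting RNAs, or piRNAs, guide Piwi proteins to transposon transcripts in the germline. In the ping-pong cycle a piRNA of one strand, often beginning with U, guides the slicing of a transcript of the other strand. The new 5′ end lies at a fixed 10 nt overlap with the guide, and the product tends to carry A at base 10. In the other route, phased biogenesis, a precursor is cut stepwise, so that the 3′ end of one piRNA tends to be followed by a U that begins the next. Antisense piRNAs are complementary to the element's transcript, and sense piRNAs are pieces of it.

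The listed matches were used to rebuild the plus strand. Its longest open reading frame runs from 617 to 3190. The window lies inside this frame and covers parts or all of codons 195 to 295. The rebuilt plus strand is shown because it locates the antisense 5′ ends discussed afterwards. It comes in 2 pieces, since positions 1271 and 1272 were covered by no read. Sequences are written 5′ to 3′ with T for U, as the lists have them. Capitals mark the 8 positions that were among the 5 strongest antisense 5′ ends of at least 1 strain: 1265 in the first piece, and 1372, 1420, 1423, 1437, 1461, 1491 and 1493 in the second.
Penelope 1201 to 1270: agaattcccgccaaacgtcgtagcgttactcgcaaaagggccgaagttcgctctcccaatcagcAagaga
Penelope 1273 to 1500: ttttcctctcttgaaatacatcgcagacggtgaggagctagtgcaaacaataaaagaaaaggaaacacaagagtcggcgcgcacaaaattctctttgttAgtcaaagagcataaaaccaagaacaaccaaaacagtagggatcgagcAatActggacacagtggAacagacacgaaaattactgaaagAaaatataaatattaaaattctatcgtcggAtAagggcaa
Each of these positions is an A on the plus strand, so an antisense RNA that starts there begins with U. The plus strand of the window held 39.6% A, 18.8% T, 20.8% G and 20.8% C over its 298 covered positions. In the rest of the element the shares were 43.2% A, 21.9% T, 15.3% G and 19.7% C.

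The leading antisense members are shown because they were the most abundant in each strain. They are the 5 most abundant antisense members of each library, 9 sequences in all. Capitals mark T at base 1 and A at base 10.
1238 to 1265: Tgctgattgggagagcgaacttcggccc
1239 to 1265: Tgctgattgggagagcgaacttcggcc
1245 to 1268: Tcttgctgattgggagagcgaact
1348 to 1372: Taacaaagagaattttgtgcgcgcc
1396 to 1420: Tgctcgatccctactgttttggttg
1398 to 1423: TattgctcgAtccctactgttttggt
1410 to 1437: Tccactgtgtccagtattgctcgatccc
1437 to 1461: TctttcagtAattttcgtgtctgtt
1469 to 1493: TatccgacgAtagaattttaatatt
All 9 began with T, and 3 of them carried A at base 10. All matched Penelope exactly, and 8 of the 9 were listed in each of the 3 libraries.

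The sequence at 1410 to 1437 led the antisense members of every strain, its reads numbering 13 (A1a), 25 (A2d) and 18 (A2h). These were 7.14%, 7.18% and 5.68% of the antisense members' reads. The sequence at 1238 to 1265 had 6, 7 and 16 reads in A1a, A2d and A2h, whereas its form shorter by 1 base at the 3′ end had 8, 6 and 5. The 24 nt sequence at 1245 to 1268 had 4, 8 and 10 reads. Those 3 sequences overlap, with 5′ ends within 3 nt of each other, so they are not separate sites. At 1348 to 1372 the reads were 7, 15 and 4, the lowest number being that of A2h. All antisense reads with a 3′ end at 1348, from any start, numbered 10, 16 and 17. The sequences at 1396 to 1420 and at 1398 to 1423 had 4 and 2 reads in A1a, 9 and 10 in A2d, and 11 each in A2h. At 1469 to 1493 the reads were 7, 5 and 8, or 3.85%, 1.44% and 2.52% of the antisense members' reads. The sequence at 1437 to 1461 was the exception among the leaders, as it had no read in A2h, 2 in A1a and 9 in A2d. A count of 0 among the 317 antisense reads of A2h allows a share of up to 0.946%. Members among the 10 most abundant of all 3 libraries numbered 4: those at 1238 to 1265, 1245 to 1268, 1396 to 1420 and 1410 to 1437.

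The strands differed between the strains. In A1a 182 of the 220 member reads were antisense, or 82.7% (77.1–87.5%). A2d had 348 of 447, or 77.9% (73.7–81.6%). In A2h all 317 reads were antisense (98.8–100%). Over the whole element, the window included, the antisense shares were 57.1%, 60.6% and 94.0%, lower than here in all 3 libraries. For A2h this is a description only, since the window was picked for its antisense reads and held 42.4% of all its reads. A2h had only 45 sense reads on the entire element. None of those fell in the window, which allows 0 to 7.87%, a range that includes the share of sense reads found here in A1a, 4.99% (3.55–6.78%), and in A2d, 6.50% (5.31–7.86%). At this depth a difference in the share of sense reads was not detectable. As a description, the window held 17.9% (15.6–20.4%) of the antisense reads of A1a, 14.8% (13.4–16.3%) of those of A2d and 45.1% (41.4–48.9%) of those of A2h.

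At the edges of the rule the numbers were small. The 10 positions just below the window held 10, 10 and 19 antisense reads in A1a, A2d and A2h, and no sense read. The first 10 positions inside held 1, 15 and 7 antisense reads, with 5 sense reads in A1a and 21 in A2d. The last 10 positions inside held 1, 4 and 1 antisense reads, and the 10 just above held 1 in each strain.

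Within the window the antisense reads of the 3 strains shared a dense first step and a sparse second one. By the position where the match starts, in steps of 50 nt, those at 1201 to 1250 were 24.7% (18.6–31.7%; A1a), 28.4% (23.8–33.5%; A2d) and 27.4% (22.6–32.7%; A2h) of them. The step from 1251 to 1300 was the lowest in each, at 4.95%, 8.62% and 6.31%. Starts at 1401 to 1450 made up 23.6% (17.7–30.5%), 25.9% (21.3–30.8%) and 17.03% (13.1–21.6%). Every interval of A2h in these steps overlapped those of both other strains. For starts at 1401 to 1450 the intervals of A2h and A2d met only at their ends, and no test of the layout was run. Sense reads, present in A1a and A2d only, were most numerous at 1201 to 1250 in A1a (13 of 38) and at 1401 to 1450 in A2d (36 of 99).

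The same nucleotides were leading antisense 5′ ends in the 3 strains. Position 1265 had 21 (A1a), 28 (A2d) and 30 reads (A2h). Position 1437 had 19, 36 and 25 reads, and position 1493 had 11, 17 and 22. These 3 positions held the first 3 ranks in every strain. Position 1420 had 6, 10 and 16 reads, position 1423 had 4, 13 and 14, and position 1372 had 10, 16 and 7. Together the 8 positions shown in capitals above held 46.7% (39.3–54.2%) of the antisense reads of A1a, 40.8% (35.6–46.2%) of A2d and 40.1% (34.6–45.7%) of A2h, values that include the reads by which the positions were named. Antisense 5′ ends were used at 56 positions in A1a, 88 in A2d and 76 in A2h, of which 35 were common to all. Those 35 held 81.3%, 65.8% and 75.1% of the antisense reads of A1a, A2d and A2h.

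Of the antisense members 34 were found in all 3 strains, which is 31.8% of the list of A1a, 20.9% of that of A2d and 22.2% of that of A2h. They held 53.8%, 43.1% and 45.4% of the antisense reads. A1a and A2d had 44 antisense sequences in common, A1a and A2h also 44, and A2d and A2h 61. Of the A2h sequences 28.8% were in A1a and 39.9% in A2d, and depth differs between those lists. Sampling each list down to the 182 antisense reads of A1a would leave on average 104.3 distinct sequences in A2d and also 104.3 in A2h, against the 107 of A1a. Variety per read was therefore close in the 3 libraries. Of the antisense sequences 70.1%, 66.9% and 68.6% in A1a, A2d and A2h had been read a single time. The sense members had less in common: 7 sequences were shared by A1a (of 33) and A2d (of 56). Those lists rest on only 38 and 99 reads, and 90.9% and 69.6% of their sequences had been read once. Their sharing therefore cannot be set against that of the antisense members.

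Some 5′ ends of A1a and A2d had no read in A2h. Position 1461 had 6 (A1a), 16 (A2d) and 0 reads (A2h). Position 1321, singled out after its values were seen, had 4, 13 and 0 reads, and position 1432, found in the same way, had 3, 6 and 0. Those 3 are all the antisense 5′ ends with at least 5 reads in A1a and A2d together and none in A2h. No 5′ end had 5 or more reads in A2h and none in the other strains. These counts are not alike. The latter needs no read in both A1a and A2d, with 182 and 348 antisense reads, the former only none among the 317 of A2h. Most antisense reads lay at shared 5′ ends: 83.0% of those of A1a and 77.6% of those of A2d were at ends also used in A2h. Of the A2h reads 76.7% were at ends used in A1a and 89.0% at ends used in A2d. No sense partner at 10 nt was listed for 1461 or 1321 in any library, and for 1432 there were 2 such reads, in A2d. Zero reads at a single position of A2h allow up to 0.946% of its antisense reads, against 4.60% of those of A2d at 1461. Neighbouring starts were used in A2h, with 1, 2 and 1 reads from 1462, 1463 and 1464, all ending at 1438. The reads from 1461 that ended at 1438 numbered 4 in A1a and 6 in A2d. A2h also had 6 reads at 1319 and 1 at 1322, near 1321, and 3 at 1434, near 1432. A2d had 3 reads at 1462 and 6 at 1319.

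The 3′ ends were as concentrated as the 5′ ends. The 5 strongest 3′ ends of each library held 35.7% (28.8–43.1%) of antisense reads (A1a), 30.7% (25.9–35.9%; A2d) and 34.7% (29.5–40.2%; A2h). For the 5 strongest 5′ ends the shares were 37.9% (30.8–45.4%), 32.5% (27.6–37.7%) and 33.8% (28.6–39.3%). Position 1410 was the 3′ end of 18, 41 and 25 reads in A1a, A2d and A2h. Position 1238 was that of 12, 20 and 25 reads, position 1396 of 15, 13 and 23, position 1245 of 9, 16 and 20, position 1348 of 10, 16 and 17, and position 1239 of 10, 14 and 8.

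Several 3′ ends were reached from more than 1 start. Reads ending at 1396 began at 1420 (5, 10 and 12 reads in A1a, A2d and A2h), at 1421 (5, 1 and 8) and at 1423 (1, 1 and 3), with 3 more reads of A1a from 1422 and 1 read each of A1a and A2d from 1419. Reads ending at 1245 began at 1268 (4, 11 and 11) or at 1270 (5, 5 and 8), apart from 1 read of A2h that began at 1267. Precision of the 3′ end differed from start to start. Of the reads that began at 1437, the share ending at 1410 was 15 of 19 (A1a), 28 of 36 (A2d) and 18 of 25 (A2h). All reads that began at 1268 ended at 1245 in the 3 libraries. Reads that began at 1265 ended at 5 positions in A1a, 6 in A2d and 5 in A2h. Of these, the 3′ end at 1238 took 7 of 21 (33.3%, 14.6–57.0%; A1a), 7 of 28 (25.0%, 10.7–44.9%; A2d) and 16 of 30 (53.3%, 34.3–71.7%; A2h), with intervals that overlap. From 1493 the reads ended at 1469 (7, 5 and 8 reads) or at 1467 (1, 9 and 4), among other positions.

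Antisense members were mostly 24 to 28 nt long. A1a had a mean of 25.9 ± 1.54 nt (SD, 182 reads), A2d a mean of 25.9 ± 1.58 nt (SD, 348 reads) and A2h a mean of 26.2 ± 1.66 nt (SD, 317 reads). The commonest length was 25 nt in A1a, at 27.5% (21.1–34.6%), and in A2d, at 26.1% (21.6–31.1%). In A2h lengths of 25 and 26 nt had nearly the same share, 21.5% (17.1–26.4%) and 21.8% (17.3–26.7%). A second rise at 28 nt, with 17.6% in A1a, 13.2% in A2d and 16.1% in A2h, included the sequence at 1410 to 1437. Sense members averaged 26.3 ± 1.80 nt (SD, 38 reads) in A1a and 26.8 ± 1.67 nt (SD, 99 reads) in A2d. Of the A2d sense reads 22.2% were 29 nt long, and 1 sequence, described with the partners, made up most of those. On the rest of the element antisense reads averaged 25.8, 25.9 and 25.99 nt in A1a, A2d and A2h, within the SD of the members.

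U at the first base was the rule among antisense members. It was found in 80.8% (74.3–86.2%) of reads of A1a, 85.3% (81.2–88.9%; A2d) and 83.6% (79.1–87.5%; A2h). At the other bases of the same reads, leaving out base 10, U made up 33.1%, 32.4% and 33.1%. The antisense reads outside the window began with U in 71.7% (68.5–74.7%), 78.8% (77.0–80.6%) and 79.8% (75.4–83.7%). For A2d the 2 intervals did not overlap, for A1a they overlapped by less than 1 point, and for A2h they overlapped widely. Members that share a 5′ end share their first base, so these shares rest on a few positions. Sense members began with U in 47.4% (30.98–64.2%) in A1a and 53.5% (43.2–63.6%) in A2d.

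A at base 10 was close to its background among the antisense members of A1a and somewhat above it in the other strains. It was found in 19.8% (14.3–26.3%) of reads in A1a against 18.7% A at the other bases. In A2d the share was 23.6% (19.2–28.4%) against 18.1%, and in A2h 25.6% (20.8–30.7%) against 18.8%. In A1a the share lay below that of antisense reads outside the window, 31.2% (28.1–34.5%). The 2 intervals of A2d and those of A2h overlapped, with 26.8% (24.8–28.8%) and 20.98% (17.03–25.4%) outside. Reads that share a 5′ end also share base 10, mismatches aside, so these shares rest on a few positions. On the element the starts at 1423, 1461, 1491 and 1493 all have A there. In A2d they had 13, 16, 6 and 17 reads, beside 82 antisense members' reads with A at base 10. In A2h they had 14, 0, 13 and 22 reads, beside 81, and in A1a 4, 6, 8 and 11, beside 36. The share without these starts was not computed.

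Sense members carried A at base 10 in 36.8% (21.8–54.0%) of reads in A1a, an interval that includes their background of 33.5%. The sense reads of A1a outside the window had it in 58.3% (54.6–61.9%), an interval above that of the members. In A2d the share was 51.5% (41.3–61.7%) against a background of 32.6%, close to the 52.5% (49.9–55.1%) outside. That value rested on 1 start: without the sense reads that begin at 1414 it was 36.0% (25.2–47.9%), or 27 of 75 reads. Leaving this start out, a choice made after its values were seen, gave 31.4% (16.9–49.3%) in A1a, or 11 of 35 reads.

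Counted from the antisense reads, the ping-pong overlap was less frequent in the window than on the rest of the element in A1a and A2d. A2h listed too few sense reads to judge it. In A1a 5 of 182 antisense reads, 2.75% (0.898–6.29%), had a sense read overlapping by exactly 10 nt at the 5′ ends. Outside the window 22.6% (19.8–25.6%) of the antisense reads of A1a had one. Reads outside include those with more than 1 place, taken at their lowest start, whereas every member had 1 place. In A2d the shares were 10.3% (7.35–14.03%) inside and 30.5% (28.5–32.5%) outside. In neither A1a nor A2d did the intervals overlap. In A2h 0 of 317 antisense members had a partner (0–1.16%), and 0.518% (0.0628–1.86%) of those outside.

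Since sense reads were few here, the other overlaps from 1 to 20 nt were read beside it. For antisense members of A1a their mean was 9.28%, above the value at 10 nt, and the highest was 21.98% at 18 nt. The 10 nt overlap ranked 19 of the 20 in A1a. In A2d their mean was 8.50% and the highest 24.1% at 19 nt, and 10 nt ranked 6. Outside the window the mean over other overlaps was 8.23% in A1a and 14.4% in A2d, and 10 nt ranked first in both. Seen from the sense members, 13.2% (4.41–28.1%) in A1a and 39.4% (29.7–49.7%) in A2d had an antisense partner at 10 nt. Outside the window the sense shares were 18.1% (15.4–21.1%) and 19.9% (17.9–22.1%), so that in A2d the sense members had partners more often than other sense reads, the opposite of the antisense direction. The mean over the other overlaps of the sense members was 22.4% in A1a and 29.4% in A2d, and 10 nt ranked 15 and 5. The highest were 52.6% at 8 nt and 57.6% at 19 nt. The A2d value rested on 1 start, at 1414: without its most abundant sequence 25.0% (15.99–35.9%) of the sense members of A2d had a partner, and without any sense read from that start 20% (11.6–30.8%).

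One pair of starts held nearly all read pairs of this kind. The antisense 5′ end at 1423 and the sense 5′ end at 1414 overlap by 10 nt. The pair is shown with its shared 10 nt in capitals.
Antisense, 1398 to 1423: TATTGCTCGAtccctactgttttggt
Sense, 1414 to 1442: TCGAGCAATActggacacagtggaacaga
Both begin with T and both have A at base 10. Weighted by the product of their reads, the 2 starts held 12 of the 13 read pairs at 10 nt in A1a and 312 of 341 in A2d, where pairs lay at 6 antisense positions. The sense sequence was the most abundant sense member of A2d, with 19 reads. In A1a it had 3 reads, as many as the sense member at 1227 to 1253, and in A2h it was not listed. The antisense sequence had 2, 10 and 11 reads in A1a, A2d and A2h. Its level as a share of antisense members was 1.10%, 2.87% and 3.47%. Whether this level depends on the sense partner was not tested. Without the sense reads at 1414 the share of antisense members with a partner was 0.549% (0.0139–3.02%) in A1a and 6.61% (4.24–9.75%) in A2d.

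The other leading sense members were listed in 1 library each. They are shown because they are the leading sense sequences without an identical copy in the other strain, with T at base 1 and A at base 10 in capitals.
A2d, 1207 to 1233: cccgccaaacgtcgtagcgttactcgc
A1a, 1227 to 1253: TactcgcaaAagggccgaagttcgctc
A1a, 1278 to 1303: ctctcttgaAatacatcgcagacggt
A2d, 1340 to 1364: caagagtcggcgcgcacaaaattct
Those at 1207 to 1233 and 1340 to 1364 had 5 and 4 reads in A2d and were not listed in A1a. The ones at 1227 to 1253 and 1278 to 1303 had 3 and 2 reads in A1a and were not listed in A2d. However, A2d had 1 read from 1227 to 1253 that differed from the A1a sequence by 1 base. At these counts no difference between the strains was detectable. The start at 1207 itself was used in both, with 4 reads in A1a and 12 in A2d.

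The base that follows the 3′ end on the element, read on the antisense strand, was U for 67.6% (60.3–74.3%) of the antisense members in A1a, 61.5% (56.2–66.6%) in A2d and 71.3% (66.0–76.2%) in A2h. At the 2nd to 10th base after the 3′ end U made up 51.7% on average in A1a, 49.4% in A2d and 50.6% in A2h. The highest of these positions reached 63.7%, 58.0% and 61.8%. The first base thus stood above every later one in each library, although the intervals of A1a and A2d reached down to the highest of them. The interval of A2h did not. Reads that share a 3′ end share the base that follows it, so these shares rest on a few positions. Counting each sequence once gave 64.1% (55.9–71.6%) in A2h, an interval that reaches below 61.8%. The later bases were not recomputed in that way. Among the 5 strongest 3′ ends of at least 1 library, those at 1410, 1238, 1396 and 1245 are followed by U, the one at 1348 by G and the one at 1239 by C. Outside the window, among reads with 1 place, U followed in 58.7% (53.8–63.4%), 65.2% (62.2–68.1%) and 75.8% (70.7–80.4%), each overlapping the window's interval. Among sense members U followed in 34.2% (19.6–51.4%) in A1a and 14.1% (7.95–22.6%) in A2d, against means of 17.0% and 21.8% at the later bases.

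Head-to-tail order of antisense reads was less clear than the following U. The 3′ end was followed directly, at a distance of 1 nt, by the 5′ end of another antisense read for 29.7% (23.1–36.9%) of members in A1a, 36.5% (31.4–41.8%) in A2d and 34.7% (29.5–40.2%) in A2h. The mean over distances of 2 to 30 nt was 16.9%, 25.2% and 24.6%. Direct succession was the most frequent distance in A1a, where 27 nt came next at 28.6%. It ranked 3 in both A2d and A2h, where the most frequent distances were 28 nt at 39.9% and 23 nt at 39.7%. With sequences of 2 or more reads only, it fell to 3.74% in A1a, 11.3% in A2d and 8.96% in A2h. With exact matches only, it was 17.2% (11.6–24.2%) in A1a and 20.5% (16.1–25.5%) in A2d, whereas A2h had 34.5% (29.02–40.3%). Both filters also removed possible followers. The other distances were not recomputed under them, so these values cannot be set against the means above.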

How the data were processed

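Per the labels' protocols, a gel slice of 23 to 29 nt was taken, adapters were ligated and the products amplified by PCR. The authors deposited 1 list per strain with raw read counts of distinct sequences that match Penelope, not normalised as far as the file headers show, with strand, start, end and up to 2 mismatches. No source used here names the aligner or the Penelope reference. Of the lines, 3 in A1a and 2 in A2d were empty and not analysed here; their neighbours lie outside the window.

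Each sequence was counted once per list and placed by its lowest start. Lists held 1777, 3870 and 748 reads in A1a, A2d and A2h, of which 220, 447 and 317 were members'. The element was rebuilt from matches with mismatches set back to the authors' base, without contradiction. Positions count from 1 on Penelope, whose name was in 0 lines of the fly annotation used here, so no chromosome is given. Partners and followers were sought among all reads of a library, and both searches were tested on simulated data. Shares carry exact 95% intervals, and a 0 was taken to allow 3 counts. The named items were the 5 most abundant antisense and 3 most abundant sense members and the 5 and 3 strongest 5′ ends of each library, members among the 10 most abundant of all, and the strongest 10 nt pairs, of which 1 per library is printed. Members and rules were chosen with earlier results of these data known. No gene list or marker applies to a single element. Alternatives were other weights, minimum counts, mismatch and length filters, shifted windows and wider distances. Python 3.11.15, pandas 2.3.3 and SciPy 1.17.1 were used.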

Additional observations from a re-analysis of the deposited data

Results flagged for a closer look

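The mismatches themselves were compared nowhere in the results, and their column served only to filter exact matches. It held a signal above the 3 counts that a 0 allows. Among antisense members 17.0% (11.9–23.3%) of reads carried a mismatch in A1a, 11.8% (8.59–15.6%) in A2d and 8.52% (5.69–12.2%) in A2h. Outside the window the shares were 16.1%, 15.6% and 9.07%. Nearly all of these sequences had been read once: 31 of 31 (A1a), 39 of 40 (A2d) and 27 of 27 (A2h). Read 5′ to 3′ on the antisense strand, with the authors' base first, G-to-T changes were 23 of 38 mismatched bases (A1a), 22 of 42 (A2d) and 12 of 29 (A2h). Whether single positions differ between strains was not tested. With the authors' base first and plus-strand positions counted from 1, the change with the most reads was C1419A in A1a, in 4 of 56 covering reads, C1429A and C1431A in A2d, in 3 of 102 and 3 of 99, and C1261A, among several with 2 reads, in A2h, in 2 of 66.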

How the results depend on the processing

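Of 210 values recomputed under other settings, 171 stayed within the interval (for mean lengths, 1 SD) of the value reported, including all 28 with 23 to 29 nt only. Not every value could move much. That length filter kept 218 of 220, 443 of 447 and 314 of 317 member reads in A1a, A2d and A2h. Mean lengths were judged by the spread over reads. A2h had no sense member, so most settings could not change its antisense share or its share with partners. Counting each sequence once gave an antisense share of 76.4% in A1a and U at base 1 in 77.3% (A2d) and 74.5% (A2h). It put 26.2%, 18.4% and 20.3% of antisense members of A1a, A2d and A2h at the 5 strongest 5′ ends. It also gave 30.7% followed at 1 nt and 28.6% of sense members with a partner in A2d, and U after the 3′ end in 64.1% in A2h. Keeping sequences of 2 or more reads gave an antisense share of 93.04% and A at base 10 in 100% (63.1–100%) of the sense members of A1a, of which 8 reads were left, and U at base 1 in 90.4% (A2d) and 90.1% (A2h). The 5 strongest 5′ ends then held 48.6%, 42.3% and 44.8%, and 3.74%, 11.3% and 8.96% of antisense members were followed at 1 nt. Partners were then found for 37.5% (8.52–75.5%) of the same 8 sense reads of A1a and 4.18% of antisense members in A2d. With exact matches only, 17.2% (A1a) and 20.5% (A2d) were followed at 1 nt. Distances of 0 to 2 nt gave 41.8%, 63.2% and 59.0% followed. Overlaps of 9 to 11 nt gave partners to 19.2% (A1a) and 15.2% (A2d) of antisense members, and to 36.8% and 67.7% of sense members. A window 50 nt upstream gave A at base 10 in 13.9% (A1a) and 18.4% (A2h) of antisense members, and one 50 nt downstream put 39.04% at the 5 strongest 5′ ends in A2d. Without the most abundant member, sense members of A2d had A at base 10 in 40% and partners in 25.0%. Without the strongest sense 5′ end of A2d, at 1414, a setting chosen after seeing the data, these were 36.0% and 20%, and antisense members had partners in 0.549% (A1a) and 6.61% (A2d). The cause of these shifts was not tested. No paired analysis was possible because each strain had 1 library and no test was run. Depth limits the sense values most, since A1a had 38 sense member reads, A2d 99 and A2h 0.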

Other observations

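No read of any library crossed positions 1271 and 1272. Coverage at position 1265 was 33 (A1a), 52 (A2d) and 54 reads (A2h) and fell to 5, 6 and 9 at position 1270, and to 0 in all 3 at the next 2. It was 0 up to 1277 in A1a and up to 1276 in A2h, and rose again to 4, 10 and 9 reads at 1279. The antisense 5′ ends at 1268 and 1270 lie at the border of this gap. Median coverage of the window was 15, 34 and 24 reads in A1a, A2d and A2h, and its highest coverage, 56, 119 and 77 reads, lay at 1414 in A1a and A2d and at 1416 in A2h. The bases at the gap are unknown here, and whether the strains differ from the authors' sequence there was not tested.

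Among antisense members, A at base 10 was also found without U at base 1. Reads that lack U at base 1 had A at base 10 in 7 of 35 cases (8.44–36.9%) for A1a, 13 of 51 (14.3–39.6%) for A2d and 16 of 52 (18.7–45.1%) for A2h, intervals that include the shares over all antisense members. Among sense members of A2d both marks occurred together in 41 of 99 reads (41.4%, 31.6–51.8%), and A at base 10 occurred in 10 of the 46 reads without U at base 1 (21.7%, 10.9–36.4%). Of those 41 reads 24 came from the start at 1414, so the value rested largely on 1 position. The share of both marks without it was not computed.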
